A study of Mus musculus with 7 samples.

Results

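Tmprss4, Clstn2, Mmd2, Bex2 and Adam8 are 5 of the 36492 gene names on the arrays of fasted livers from wild type (WT) and SHIVA mice. They were chosen by hand for a consistent rise in SHIVA livers in these same arrays, with no numeric threshold given, so their differences between the genotypes are described here and not tested. Each gene was read by 1 probe, and these 5 probes are among 55681 on the array. All 5 genes were among the 20012 that entered the comparison of the genotypes, for which a well above background mark in 3 or more livers was required. Clstn2, Bex2 and Adam8 passed that filter only through SHIVA livers, so a high value in SHIVA was a condition for their entry.

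The WT group held 3 female C57BL/6 mice and the SHIVA group 4 female mice of the same background that carry a mutation of Sox17, a transcription factor of the SRY-box family. All were 8 to 12 weeks old and were fasted for 24 h before the liver was taken. The SHIVA line came from a chemical mutagenesis screen and was kept by repeated crossing to C57BL/6, and per the study's methods its viable carriers are heterozygous. Each liver was hybridized to a single-colour Agilent array of its own, without pooling. The Sox17 probe read 3.94 ± 0.55 (log2 signal, SD, n = 3) in WT livers, well above background in 2, and 4.64 ± 0.12 (SD, n = 4) in SHIVA livers, well above background in 4. It reads the amount of transcript, not the mutation, and so does not check the genotype. The 6 hepatocyte marker genes averaged between 15.34 and 15.70 on the log2 scale in every liver, as the tissue label says. All 7 arrays lay on 1 slide, WT in row 1 and SHIVA in row 2, so an effect of the slide row cannot be told apart from that of the genotype.

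The 5 genes belong to unrelated families, and all but Bex2 encode proteins anchored in membranes. Tmprss4 encodes a type II transmembrane serine protease of epithelial cells, and Adam8 a membrane metalloprotease known from leukocytes that sheds other surface proteins. Clstn2 encodes calsyntenin 2, a cadherin-related protein of synapses. Mmd2 encodes a multi-pass protein of the progestin and adipoQ receptor (PAQR) family, and Bex2 a small intracellular adaptor named for its expression in brain.

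Because every value of a gene rests on a single 60-base probe printed once per array, the first 30 bases of each probe, counted from its 5′ end as given in the scanner files, are shown here in lower case, with no base marked.
Tmprss4: ggtattgcaattgtcacctctgtggtcaat
Clstn2: acaaactgattcatgttggtggtcattacg
Mmd2: tcttggttctagaggagctgagatctggga
Bex2: gtttgtgatgtactgttgtaatatttctgg
Adam8: ccgtcatctccggattgaaacagattagtt
All 5 probes lie on the minus strand of mm9, the build in the scanner files. The Tmprss4 probe is at chr9:44980979-44981038 and the Clstn2 probe on the same chromosome at chr9:97344834-97344893. The Mmd2 probe is at chr5:143039928-143039987, the Adam8 probe at chr7:147164873-147164932 and the Bex2 probe at chrX:132601237-132601296. An annotation of mm9 was not used here, so the exon or untranslated region under each probe is not given. No other probe of the array shares a run of 16 bases with any of them. Their GC content runs from 35% for Clstn2 and Adam8 to 45% for Mmd2. RefSeq (GRCm38.p6) promoter windows of 300 bases, reaching from upstream of the start to just past it, were at hand for 4 of the genes, all but Tmprss4. The letters AACAAT, a core of SOX binding motifs, occurred on either strand in 0 of the 4, against 10.7% of 32851 windows of that length.

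Values are log2 signals after quantile normalization over the 7 arrays, on which 1 unit is a doubling of the signal. A probe is called well above background where the scanner software found its spot clearly brighter than background. The lowest signal with that mark lay between 2.21 and 2.95 on the 7 arrays.

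Tmprss4 had the widest difference of the 5 between the group means on processed signals, while on signals that keep the background, with normexp or in the authors' table, Mmd2 was wider. Its log2 signal was 3.20, 2.67 and 3.93 in WT livers 1 to 3, and 7.41, 7.45, 6.98 and 6.57 in SHIVA livers 1 to 4. The groups did not overlap, and the lowest SHIVA liver stood 2.64 above the highest WT liver. The means were 3.27 ± 0.63 (SD, n = 3) and 7.10 ± 0.41 (SD, n = 4), a difference of 3.83 or 14.3-fold. The fold carries an uncertain denominator, since in WT the probe was well above background in liver 3 alone. In SHIVA it was so in all 4 livers.

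Mmd2 was the member whose probe was well above background on all 7 arrays, so both sides of its difference were measured. Its log2 signal was 8.35, 7.61 and 9.20 in WT livers 1 to 3. In SHIVA livers 1 to 4 it was 11.21, 11.27, 11.02 and 11.06. The 4 SHIVA livers lay close together (11.14 ± 0.12, SD, n = 4) and the WT livers were spread wider (8.39 ± 0.79, SD, n = 3). The difference was 2.76, or 6.75-fold, with 1.82 between the nearest livers of the groups.

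Clstn2 was at background in WT. Its signal was 1.14, 1.46 and 1.16 in WT livers 1 to 3, none of them well above background, and the scanner software had set livers 1 and 3 to a surrogate value. In SHIVA livers 1 to 4 it was 4.34, 4.07, 3.88 and 4.00, well above background in all. The measured means of 1.25 ± 0.18 (SD, n = 3) and 4.07 ± 0.20 (SD, n = 4) differ by 2.82. Against the lowest signal that counts as well above background on the WT arrays, Clstn2 was 2.87-fold higher in SHIVA on processed signals. That fold is not a lower limit, since the log2 difference was 0.76 on the mean spot signal and 0.38 with normexp.

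Bex2 showed the same kind of contrast. WT livers 1 to 3 gave 1.86, 1.21 and 2.12, none well above background, and liver 2 held a surrogate value. SHIVA livers 1 to 4 gave 3.87, 4.42, 4.11 and 4.03, all well above background. The means were 1.73 ± 0.47 (SD, n = 3) and 4.11 ± 0.23 (SD, n = 4). Against the lowest signal well above background on the WT arrays, Bex2 was 2.93-fold higher in SHIVA on processed signals, again not a lower limit.

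Adam8 varied most among SHIVA livers. Its signal was 1.54, 1.48 and 1.99 in WT livers 1 to 3, none well above background and liver 2 a surrogate value. SHIVA livers 1 to 4 gave 4.41, 5.52, 4.32 and 3.55. SHIVA liver 2 stood highest, and SHIVA liver 4 was lowest and not well above background, so 3 of the 4 SHIVA livers carry a measured level. The means were 1.67 ± 0.28 (SD, n = 3) and 4.45 ± 0.81 (SD, n = 4). Against the lowest signal well above background on the WT arrays, Adam8 was 3.72-fold higher in SHIVA on processed signals, again not a lower limit. The difference of 2.78 became 3.08 without SHIVA liver 4 and 2.39 without SHIVA liver 2, an alternative chosen after seeing the data.

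**Figure D1:**
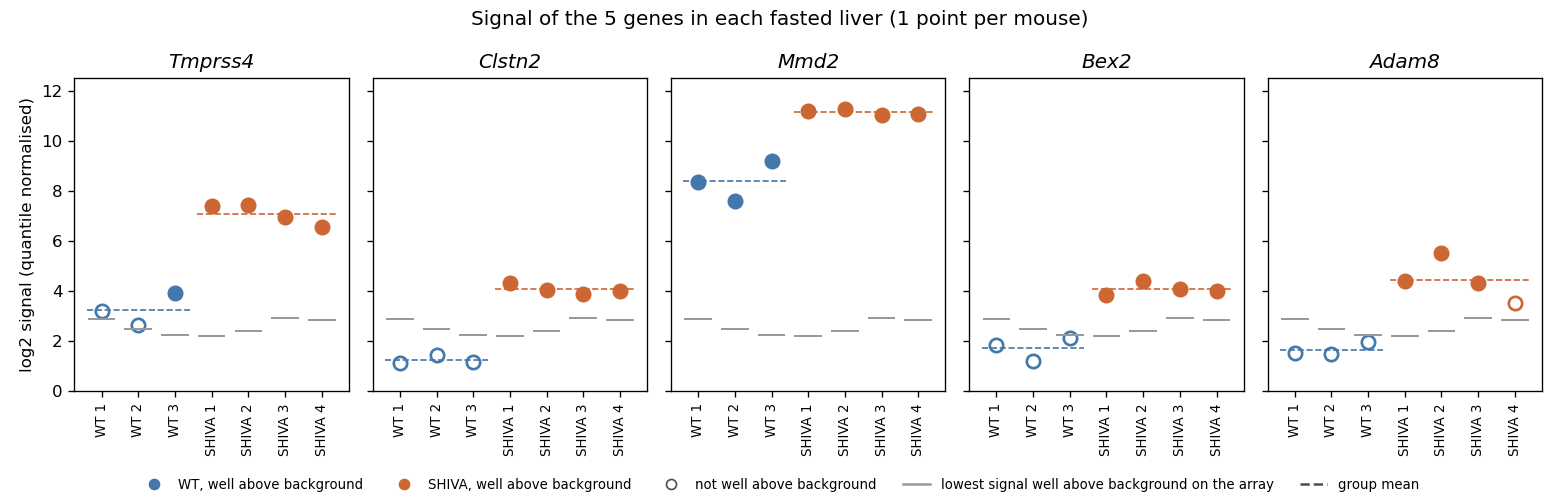
Log2 signal of each gene in the 3 WT and 4 SHIVA livers, 1 point per mouse, hollow where the probe was not well above background, with group means (dashed) and the lowest signal well above background on each array (grey). Every SHIVA point lies above every WT point, in genes that were chosen for a consistent rise in SHIVA, and Clstn2, Bex2 and Adam8 are hollow in all 3 WT livers.

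Non-overlap of the genotypes was not rare among the genes tested. Every SHIVA liver stood above every WT liver for 1272 of 20012 genes, or 6.36%. The 5 genes are in that class, but they were picked for a consistent rise, so their place in it is no separate result. With limma, 37 genes (0.185%) were higher and 38 (0.19%) lower in SHIVA at a Benjamini-Hochberg adjusted p under 0.05. Over all genes tested the median log2 difference was 0, and 50% were positive. The members' differences of 2.38 to 3.83 are read against these shares as a description only.

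The size of the difference depended on how the background under a dim spot was treated. The signals above are the software's processed signals, from which the background has been largely removed. On the mean spot signal, which keeps the background, Clstn2 ranged from 25.5 to 32.3 intensity units in WT and from 45.6 to 55.7 in SHIVA. Bex2 ranged from 29.0 to 33.3 in WT and from 44.2 to 54.2 in SHIVA. Adam8 ranged from 31.4 to 31.8 in WT and from 38.6 to 74.9 in SHIVA. Tmprss4 ranged from 35.3 to 45.3 in WT and from 134 to 256 in SHIVA. Mmd2, at 198 to 595 in WT and 2100 to 2930 in SHIVA, was far brighter than that common pedestal in both genotypes.

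On the log2 scale the mean signal gave differences of 2.22 for Tmprss4, 0.76 for Clstn2, 0.57 for Bex2 and 0.66 for Adam8. With normexp background correction and an offset of 50 these were 1.62, 0.38, 0.32 and 0.38. Mmd2 kept a difference of 2.72 and 2.61 under these settings. The fold of Tmprss4, Clstn2, Bex2 and Adam8 is therefore set in part by the background step, whereas that of Mmd2 moved by less than its spread between livers.

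**Figure D2:**
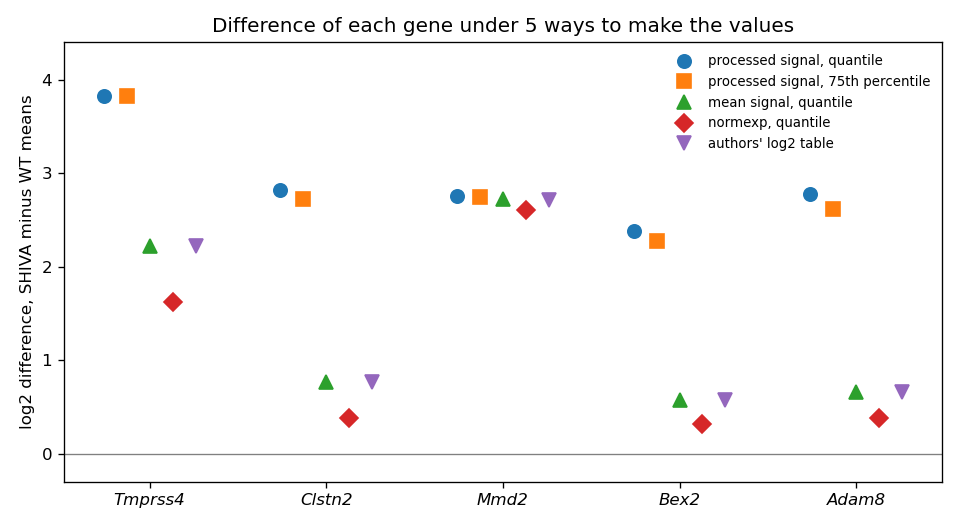
Difference of the group means (SHIVA minus WT, log2) of each gene from processed signals with quantile or 75th percentile scaling, from mean signals, from normexp-corrected signals, and from the log2 table of the authors. Mmd2 lies between 2.61 and 2.76 in all 5, while Clstn2, Bex2 and Adam8 are at most 0.76 where the background is kept or an offset is added.

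The order of the livers within a genotype was partly common to the 5 genes. Among WT livers, liver 3 was highest for 4 genes, all but Clstn2, and liver 2 was lowest for those same 4. For Bex2 and Adam8 these WT values were not well above background, and on the mean spot signal WT liver 1 was highest for both, and Mmd2 alone was well above background in all 3 WT livers. Among SHIVA livers, liver 2 was highest for 4, again all but Clstn2, for which liver 1 was highest. SHIVA livers 3 and 4 were lowest for 2 genes each, liver 4 for Tmprss4 and Adam8 and liver 3 for Clstn2 and Mmd2. Averaged over the 5 genes, the deviation from the group mean was 0.42 in WT liver 3 and -0.37 in WT liver 2, and 0.37 in SHIVA liver 2 and -0.33 in SHIVA liver 4. All 5 values of a liver come from 1 array, so the genes are not independent of each other in this order. The same livers were at the extremes of their groups in the share of all probes well above background. That share was 46.3% in WT liver 3 and 44.5% in WT liver 2, and 48.8% in SHIVA liver 2 and 45.8% in SHIVA liver 4. The part of array sensitivity in the order of the 5 genes was not tested.

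Likeness of pattern was measured as the root mean square difference between the log2 values of genes over the 7 livers, each centred on its own mean, where a small number is a close match. Among the 5 genes, Mmd2 and Bex2 were closest, at 0.31, and Tmprss4 and Bex2 farthest apart, at 0.78. This order was set by the background step, since on the mean spot signal, a comparison added after seeing the data, Mmd2 and Bex2 were the farthest apart, at 1.13, and Bex2 and Adam8 the closest, at 0.19. The neighbours named next hold for processed signals, with WT values of Clstn2, Bex2 and Adam8 at background. Of these neighbours Hoxb7, 1810064F22Rik, Pcdh18 and Sftpa1 were also well above background in no WT liver, and passed the filter only through SHIVA livers. Among all genes tested, the nearest to Tmprss4 was Esm1, which encodes the endothelial proteoglycan endocan, at 0.34, with mean log2 signals of 5.91 in WT and 9.58 in SHIVA. Mmd2 at 0.58 and Adam8 at 0.65 followed. The nearest to Clstn2 was Asns, the gene of asparagine synthetase, at 0.29, with a log2 difference of 2.99. Bex2 and Angpt2, which encodes a ligand of the TIE2 receptor, followed, both at 0.47.

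Lpl, the gene of lipoprotein lipase, was nearest to Bex2 at 0.20 and also among the 3 nearest to Mmd2 at 0.38, with a log2 difference of 2.12. Hoxb7, a homeobox gene, followed for Bex2 at 0.30, and Mmd2 at 0.31. For Mmd2 the first was Bex2, and 1810064F22Rik came next at 0.32. The nearest to Adam8 were Pcdh18, a protocadherin gene, at 0.46, Sftpa1, which encodes surfactant protein A, at 0.48, and Bex2 at 0.50. Each of the 5 had at least 1 other of them among its 3 nearest genes, in a comparison that weighs the size of the difference by which they were chosen.

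The families and known partners of the 5 genes were not used in choosing them, and were tested with limma over all 20012 genes. Of 109 such genes on the array 60 were tested, and 0 passed an adjusted p under 0.05 in either direction. At an unadjusted p under 0.05, 5 were higher and 8 lower in SHIVA. Over all genes limma gave 2645 at that level and 75 after adjustment, while the methods' t-test gave 2285 and 0. The 60 had a median log2 difference of 0.05, beside 0 for all genes, with 34 above 0 and 26 below. In 4 of them every SHIVA liver stood above every WT liver, beside 6.36% of all genes tested.

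**Figure D3:**
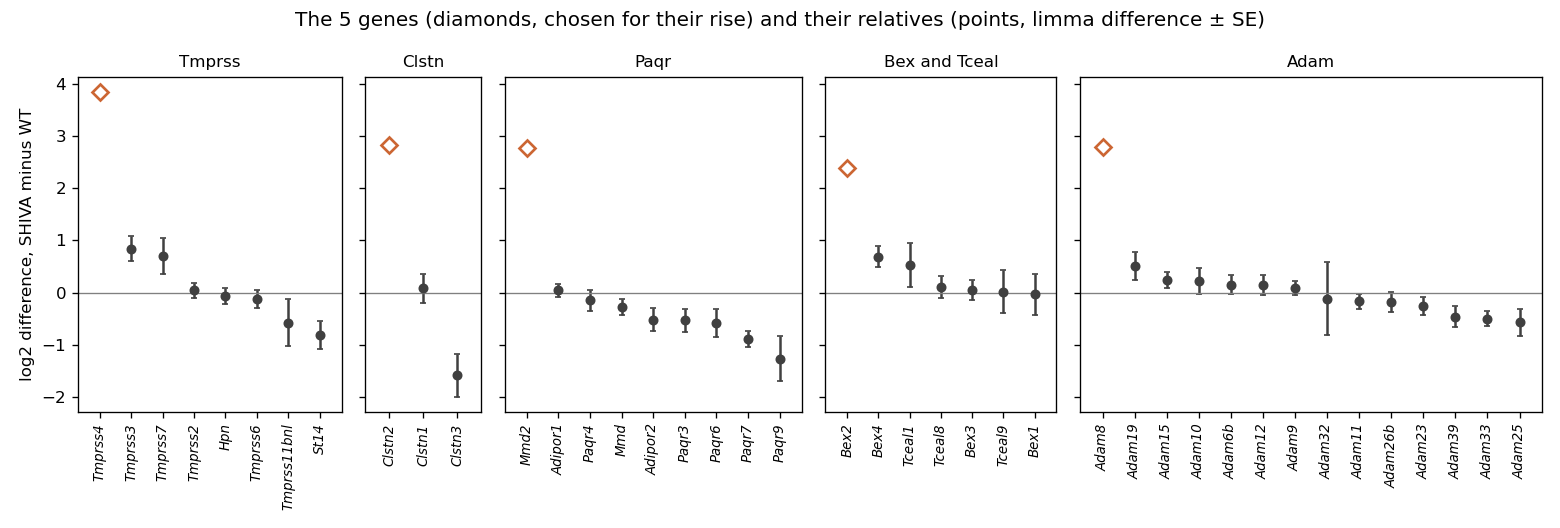
Log2 difference (SHIVA minus WT) of the 5 genes (diamonds, chosen for their rise) and of the tested members of their families (points with the standard error of the limma fit, n = 3 and 4 livers). The 36 relatives lie between -1.58 and 0.84 and none passed the adjusted threshold, while the diamonds lie between 2.38 and 3.83.

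In the PAQR family of Mmd2, 8 of 10 relatives were tested, 7 of them with a negative difference and 4 lower at an unadjusted p under 0.05. Beside these, 50% of all 20012 genes tested had a positive difference and 2645 had an unadjusted limma p under 0.05 in either direction. After adjustment 0 of the 8 relatives were called. The median of the 8 relatives was -0.53. Paqr7, a membrane progestin receptor gene, was 10.10, 10.33 and 10.21 in WT livers 1 to 3, and 9.36, 9.12, 9.50 and 9.29 in SHIVA livers 1 to 4. The groups did not overlap, and the difference was -0.89 ± 0.15 (SE) with an adjusted p of 0.0552 in limma, just short of the threshold. It passed under 6 of 16 alternatives, where the lowest adjusted p was 0.0119, and the highest over the 16 was 0.213. Paqr9 differed by -1.27 ± 0.43 (SE, limma adjusted p = 0.261). Mmd, the closest relative of Mmd2, was -0.27, and the adiponectin receptor genes Adipor1 and Adipor2 were 0.04 and -0.52, none of which passed.

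The calsyntenins Clstn1 and Clstn3 were both tested. Clstn3 differed by -1.58 ± 0.41 (SE, limma adjusted p = 0.184) and Clstn1 by 0.08 ± 0.27 (SE, adjusted p = 0.928), so the median of this family was -0.75. Clstn3 was 9.16, 9.25 and 7.53 in WT livers 1 to 3 and 6.94, 7.53, 6.64 and 7.12 in SHIVA livers 1 to 4. WT liver 3, the highest WT liver for Tmprss4 and Mmd2, was here at the level of SHIVA liver 2, and without it Clstn3 differed by -2.15 with an adjusted p of 0.0148. Partners of the calsyntenins, the amyloid precursor family with its adaptors, kinesin light chains and presenilins, had 9 of 10 genes tested, 0 called and a median of 0.17.

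Among the transmembrane serine proteases, 7 of 20 relatives of Tmprss4 were tested and 12 were well above background on no array. Their median was -0.07. Tmprss3 was 0.84 ± 0.24 (SE) above WT in SHIVA, with every SHIVA liver above every WT liver (limma adjusted p = 0.215). St14, which encodes matriptase, differed by -0.81 ± 0.27 (SE, adjusted p = 0.253). The liver proteases Hpn (hepsin) and Tmprss6 (matriptase-2) were at -0.07 and -0.13. Of the inhibitors, substrates and neighbours of such proteases 5 of 10 were tested, 0 were called and the median was 0.17. Plaur, the urokinase receptor gene, was at 0.85 (limma adjusted p = 0.261), and Scnn1a, a subunit of the epithelial sodium channel that such proteases cleave, at 0.17.

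In the Bex and Tceal group 6 of 11 relatives of Bex2 were tested, with a median of 0.07. Bex4 was 0.69 ± 0.21 (SE) above WT, without overlap (limma adjusted p = 0.229), and Tceal1 differed by 0.52 (adjusted p = 0.654). Bex1, the close paralog of Bex2, was at -0.03 (adjusted p = 0.984). Bex partners around the p75 neurotrophin receptor had 4 of 5 genes tested, 0 called and a median of 0.27. The receptor gene itself, Ngfr, was at 0.74 (adjusted p = 0.154).

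Of the ADAM genes 13 of 33 relatives of Adam8 were tested, and 16 were well above background on no array. The median was -0.12, and differences ran from -0.57 for Adam25 (limma adjusted p = 0.388) to 0.51 for Adam19 (adjusted p = 0.459). The sheddase gene Adam10 was at 0.22. Of 8 substrates and partners of ADAM8 6 were tested, 0 were called and the median was 0.17.

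Markers of other cells were read beside the 5 genes, because in whole liver fewer cells of a type and less RNA per cell cannot be told apart. Of 91 markers in 13 lists 60 were tested and 0 passed the adjusted threshold, with a median of 0.14. The neutrophil list had 8 of 9 genes tested, of which Mpo, Ltf and Ngp passed the filter only through SHIVA livers 1 to 3. The 8 averaged 5.57, 4.83 and 4.86 in WT livers 1 to 3, and 7.26, 7.23, 7.51 and 4.41 in SHIVA livers 1 to 4. Of the 8 genes 7 had a positive difference, beside 50% of all genes tested, and none of the 7 passed. The median difference of the 8 was 1.09. Over the 5 genes that were well above background in at least 1 WT liver, an alternative added after seeing the data, the means were 7.60, 6.70 and 6.25 in WT and 7.95, 8.08, 8.09 and 6.27 in SHIVA, with a median difference of 1.03. On both lists SHIVA liver 4 was the lowest of the SHIVA livers and below the highest WT liver, and it also had the lowest Adam8 signal of the SHIVA livers. SHIVA liver 2, highest for Adam8, was the highest SHIVA liver on neither list. Lists also lowest in SHIVA liver 4 included monocytes and macrophages, endothelium and dividing cells, at 9.97, 9.58 and 4.83. Bile duct and exocrine pancreas lists were highest of the SHIVA livers in liver 4, at 6.29 and 7.31. Adam8 in SHIVA liver 4 was at 3.55 and not well above background. It stood above all WT livers, and the gene was chosen for a consistent rise.

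S100a8 and S100a9, which encode proteins of myeloid cells, were at 5.25 and 7.62 in SHIVA liver 4. The other SHIVA livers were at 7.78 to 8.13 and 10.32 to 10.40. In WT livers 1 to 3 S100a8 was 7.28, 5.9 and 5.57, and S100a9 was 9.81, 8.1 and 7.97. Mpo, the myeloperoxidase gene, chosen for mention after its values were seen, was well above background in SHIVA livers 1, 2 and 3 and in no other liver. Elane, the 1 tested gene of the list with a negative difference, differed by -0.04 ± 0.15 (SE, limma adjusted p = 0.939). It was 9.28, 9.27 and 9.03 in WT livers 1 to 3, and 8.96, 9.15, 9.25 and 9.26 in SHIVA livers 1 to 4. The part of neutrophils in the Adam8 difference was not tested. For Tmprss4, Clstn2, Mmd2 and Bex2 the signal in SHIVA liver 4 deviated from the SHIVA mean by -0.53, -0.07, -0.08 and -0.08.

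The monocyte and macrophage list, with 9 of 10 genes tested, averaged 9.56 to 10.66 in WT and 9.97 to 10.86 in SHIVA livers. It was highest in WT liver 3 and SHIVA liver 2. On processed signals these were also the highest of their group for Tmprss4, Mmd2, Bex2 and Adam8, with Bex2 and Adam8 at background in WT. In SHIVA livers 1 to 4 the list was at 10.63, 10.86, 10.38 and 9.97, which is the order of Adam8 in these livers. The median difference of the list was 0.36, and its part in the values of the 5 genes was not tested. The list for dividing cells, of which Mki67 and Plk1 were tested, stood at 6.61 in SHIVA liver 2 and at 4.83 to 5.13 in the other SHIVA livers. Mki67 alone was 1.12 ± 0.43 (SE) above WT without overlap (limma adjusted p = 0.316).

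**Figure D4:**
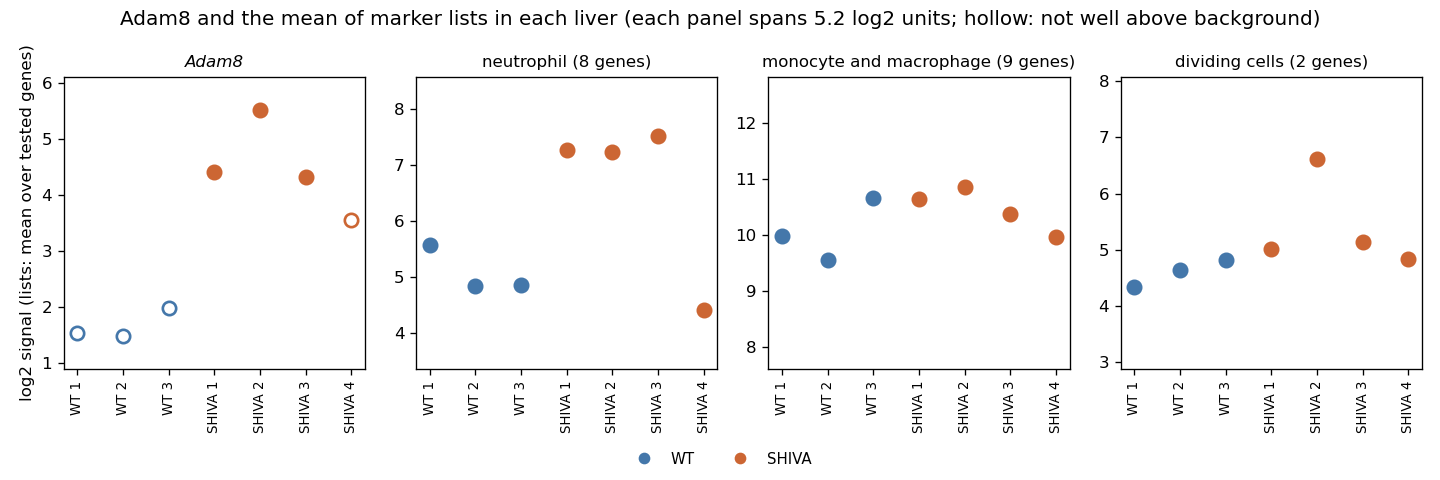
Adam8 and the mean log2 signal of the tested neutrophil, monocyte and macrophage, and dividing cell markers in each liver, with axes of equal span and hollow points where Adam8 was not well above background. SHIVA liver 4 is the lowest SHIVA liver for Adam8, at 3.55, for the neutrophil list, at 4.41, and for the other lists shown. SHIVA liver 2 is highest for Adam8 and for the monocyte and macrophage and dividing cell lists, but not for the neutrophil list.

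The other lists were read in the same way. Endothelial markers, 6 of 6 tested, averaged 9.53 to 9.64 in WT and 9.58 to 9.77 in SHIVA livers. Within each genotype their mean ranked the livers as Adam8 did on processed signals, a likeness that was not tested. Stellate cell and fibroblast markers had a median difference of 0.15 over 8 of 8 genes, lymphocyte markers 0.15 over 5 of 6 and hepatocyte markers -0.07 over 6 of 6. Bile duct markers, from the epithelium within the liver, had a median of -0.55 over 5 of 8. For neurons and glia, 3 of 7 markers were tested with a median of -0.75, beside the higher signal of the synaptic gene Clstn2.

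Of tissues that could be taken with the liver, exocrine pancreas had 4 of 8 markers tested with a median of 0.14, and Cpa1, Cpb1, Pnlip and Prss1 were well above background on no array. Of the 4 tested, Cela2a, an elastase gene, was 0.93 ± 0.22 (SE) above WT without overlap (limma adjusted p = 0.141), well above background in 1 WT and 4 SHIVA livers. Ctrb1, Cel and Amy2a5 were well above background on all 7 arrays and differed by 0.23, -0.20 and 0.06, none of which passed. The part of pancreatic RNA in the values of the 5 genes was not tested. Intestinal epithelium had 1 of 6 tested, at -0.99, and Vil1 and Cdx1 were well above background on no array. The islet and neuroendocrine list had 1 of 7 tested, at -0.01, and Ins1 and Gcg were likewise on no array. Of 5 genes of the fetal liver, 2 were tested, H19 at 2.02 (limma adjusted p = 0.176) and Afp at 0.84 (adjusted p = 0.224).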

How the data were processed

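RNA of 7 fasted livers, 3 WT and 4 SHIVA, was hybridized to single-colour Agilent arrays. The authors deposited the spot intensities of each array from Agilent Feature Extraction 10.5.1.1 (submitters' processing notes), with detrending and surrogate values for low signals, and a log2 table, quantile normalized by them, whose values rank as the mean spot signals do on every array.

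Between 120 and 163 flagged spots per array were left out, 0 spots were saturated, and the share of probes well above background was 44.5% to 48.8%. Processed intensities were averaged per probe, log2 transformed and then quantile normalized, using limma 3.58.1 and the package data.table, version 1.17.8, under R 4.3.3. Probe names were updated through RefSeq accessions (GRCm38.p6) for 26413 probes. A gene was read by its brightest probe and tested when 3 or more arrays marked that probe as well above background, by limma's linear model with empirical Bayes and Benjamini-Hochberg adjustment, threshold 0.05. The model fit was tested on simulated data holding known changes.

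The 5 genes and all gene lists were chosen with earlier results of these data known. The genes named besides are relatives that passed the threshold or had the 2 largest differences among the tested genes of their family, the 3 genes nearest in pattern to each of the 5, and the first markers of each list. Others, among them Mmd, Adipor1, Adipor2, Hpn, Tmprss6, Bex1, Adam10, Plaur, Scnn1a, Ngfr, Plk1, Mpo, Ltf, Ngp, Elane, Pnlip, Prss1, Cela2a, Ctrb1, Cel and Amy2a5, were named after their values were seen. For a group in which the probe was never well above background, the fold is given against the lowest signal well above background on those arrays. The probe's own signal was used if higher. Such a fold is not a lower limit, since it depends on the background step and a probe without the mark can exceed that signal. Whether the mice were littermates is not given in the sources used here, and the number of arrays limits the precision. Alternatives were the scaling, the background step, the filter, the mean of all probes, the authors' table, the replicate number as a block, the methods' t-test and leaving out each mouse.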

Additional observations from a re-analysis of the deposited data

Results flagged for a closer look

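Among 28 sets of values in the 4 SHIVA livers searched for a liver far from the others, 2 stood out, where chance alone marks about 5%. A count of 2 in 28 is close to that share, so neither is taken as more than chance would give. For the neutrophil list, SHIVA liver 4 had a mean log2 signal of 4.41, and the other SHIVA livers lay between 7.23 and 7.51. The gap was 0.91 of the whole range, and 0.92 over the 5 genes of the list that were well above background in a WT liver. For the dividing cell list, SHIVA liver 2 had a mean of 6.61, and the others lay between 4.83 and 5.13, a gap of 0.83 of the range. Tmprss4, Clstn2, Mmd2, Bex2 and Adam8 themselves had no SHIVA liver that stood apart by this measure.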

How the results depend on the processing

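The differences of Tmprss4, Clstn2, Bex2 and Adam8 were 2.22, 0.76, 0.57 and 0.66 on the mean signal without background correction, the same to 2 decimals in the authors' table, and 1.62, 0.38, 0.32 and 0.38 with normexp. Mmd2 moved by less than its spread in 15 of 15 alternatives. Leaving out 1 mouse at a time gave 3.53 to 4.17 for Tmprss4, 2.73 to 2.95 for Clstn2, 2.36 to 3.17 for Mmd2, 2.12 to 2.58 for Bex2 and 2.39 to 3.08 for Adam8. With a filter on all 7 arrays Mmd2 was the one member left. Genes called over the whole array were 75, of which 37 were higher in SHIVA. They were 138 (63 higher) on the mean signal, 142 (63 higher) in the authors' table, 13 (4 higher) with no filter and 0 with the methods' t-test. Without WT liver 1, WT liver 2, SHIVA liver 1 or SHIVA liver 3 they were 3, 8, 7 and 13, and without WT liver 3 they were 433, so the range was 3 to 433, and 3 to 238 for genes higher in SHIVA. Relatives and partners called numbered 1, Paqr7, with 75th percentile scaling, the mean signal, normexp, the authors' table and the filter on all arrays, and 0 to 2 with a mouse left out, the 2 being Paqr7 and Clstn3 without WT liver 3. Clstn1 (0.08) ran from -0.18 to 0.39 with a mouse left out, below 0 without WT liver 2 (-0.18) and SHIVA liver 3 (-0.03). The replicate numbers were taken as names only. Deviations from the group means correlated at -0.05, 0.01 and 0.24 between same-numbered livers of the 2 groups. Differently numbered livers gave -0.2 to 0.2. With so few pairs these values cannot decide whether the numbers pair the mice. With a replicate block 11 genes were called, 8 of them higher, and 0 relatives. No member has a second probe, and a slide or scan block could not be fitted, since all arrays share 1 slide and 1 scan. The closest pair of the 5 genes in pattern, Mmd2 and Bex2 on processed signals, was the farthest on the mean signal. Signal near background limits Clstn2, Bex2 and Adam8 in WT livers.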
